A study of Homo sapiens with 4 samples.

Results

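Integrins are receptors that join cells to the extracellular matrix, and each is a pair of an alpha and a beta subunit. The subunits described here are those of epithelial cells: ITGA6, ITGB4, ITGB1, ITGA2, ITGA3, ITGAV, ITGB5, ITGB6 and ITGB8. The ITGA6 product pairs with that of ITGB4, in the hemidesmosomes that anchor epithelium to its basement membrane, or with that of ITGB1, and both pairs bind laminins. The products of ITGA2 and ITGA3 pair with that of ITGB1 as receptors of collagen and of laminins. The ITGAV product pairs with those of ITGB1, ITGB5, ITGB6 and ITGB8, and these pairs bind the arginine-glycine-aspartate sequence in matrix proteins or in latent TGF-beta. The members were all probe sets whose annotation gives one of these 9 symbols as the only gene. There were 27 such probe sets, of 54613 on the array without controls, and they covered 8 of the 9 genes. The 4 probe sets of ITGB6 share their annotation with a second gene, so ITGB6 was not analysed here. The low values of ITGA6 in the shRNA arrays were known when the set was chosen, so all values against pLKO are a description, with no test.

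The arrays were Affymetrix U133 Plus 2.0 arrays of MDA-MB-361, an established human breast cancer line that is HER2-positive. The shRNA cells carried the pLKO-puro lentiviral vector with an shRNA to dermcidin (DCD), a different region of the transcript for each of the lines IBC-I, IBC-II and IBC-III (clones 1, 2 and 3 in the labels, matched here by number). The control cells carried the pLKO control vector, and each of the 4 lines gave 1 array. The labels call the shRNA lines clones while the study also calls them pools, and the 3 comparisons share the single pLKO array, so any other difference of that culture enters each of them. Where 3 values follow each other they belong to IBC-I, IBC-II and IBC-III, in this order.

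DCD itself read 7, 6 and 2.7 in the shRNA lines, against 2 in pLKO, all under the floor of 16 set for low intensities, so these arrays do not check the knockdown. The study reports lower DCD mRNA and protein in its shRNA cells by RT-PCR, immunocytochemistry and immunoblot. The luminal epithelial markers of the line were bright on every array, with summed intensities of 7 genes between 12919 and 40772, while KRT5 and KRT14, markers of basal cells, lay at the floor on all 4. ACTA2, the other basal or myoepithelial marker measured, read 31.6, 46.5 and 8.4 in the shRNA lines, against 68.1 in pLKO, and was lower in all 3 comparisons, as was ITGA6. Its part in the values below was not tested. IBC-III stood apart. Its Pearson r with the other arrays was 0.703 to 0.780 across the 27307 probe sets tested, whereas those of the other 3 arrays with each other were 0.889 to 0.937, and these probe sets are not independent replicates. The 3' to 5' signal ratio of the ACTB control probe sets, which is high where RNA is degraded or labelling incomplete, was 9.67, 2.58 and 42.6 in the shRNA lines, against 5.29 in pLKO. The GAPDH ratio was 2.18, 1.02 and 13.1 in the shRNA lines, against 1.09 in pLKO. The part of RNA quality in the values below was not tested. At an adjusted p under 0.05 limma called 0 of the 27307 probe sets. Before adjustment 124 were lower and 80 were higher at that threshold. The methods' t-test, which they name for results in general and not for the arrays, was run as a paired test of the 3 log2 differences. It also called 0 after adjustment, with 1077 lower and 1245 higher before it. The 3 differences share the single pLKO array, so they are not independent pairs. Their spread carries no error of that array, and nothing is read from the counts before adjustment.

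The promoters of ITGA6 and of its partner ITGB1 are shown. They were chosen because their letters differ in the motifs below, so that difference is not a result. A second ITGB1 window, which holds none of the motifs, is not shown. The sequences are from RefSeq (GRCh38.p14) and run from 250 bases before to 50 bases after an annotated start, with 7 of the 9 genes matched in that table. Capitals mark 3 motifs searched on both strands. They are ACGTG, a form of the core of the hypoxia response element, CACGTG, the E box, and GGGCGG, the GC box. The E box contains ACGTG on each strand. The other form of the hypoxia core, GCGTG, was not searched. ITGA6 has windows at 2 starts, which overlap by their ends, and both are on the plus strand of chromosome 2, while ITGB1 is on the minus strand of chromosome 10.
ITGA6, chr2:172427086-172427385: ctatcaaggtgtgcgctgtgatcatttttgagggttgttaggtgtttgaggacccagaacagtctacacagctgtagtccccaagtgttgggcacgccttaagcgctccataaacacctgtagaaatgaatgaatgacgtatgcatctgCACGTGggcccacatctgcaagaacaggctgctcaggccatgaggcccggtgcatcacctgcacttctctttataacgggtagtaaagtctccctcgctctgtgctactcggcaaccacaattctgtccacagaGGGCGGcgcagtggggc
ITGA6, chr2:172427336-172427635: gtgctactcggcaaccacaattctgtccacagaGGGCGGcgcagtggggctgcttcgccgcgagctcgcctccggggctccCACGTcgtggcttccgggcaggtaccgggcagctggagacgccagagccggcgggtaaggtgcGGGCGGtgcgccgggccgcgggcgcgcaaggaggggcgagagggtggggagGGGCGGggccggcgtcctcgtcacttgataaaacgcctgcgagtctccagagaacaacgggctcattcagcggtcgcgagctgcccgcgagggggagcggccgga
ITGB1, chr10:32958181-32958480: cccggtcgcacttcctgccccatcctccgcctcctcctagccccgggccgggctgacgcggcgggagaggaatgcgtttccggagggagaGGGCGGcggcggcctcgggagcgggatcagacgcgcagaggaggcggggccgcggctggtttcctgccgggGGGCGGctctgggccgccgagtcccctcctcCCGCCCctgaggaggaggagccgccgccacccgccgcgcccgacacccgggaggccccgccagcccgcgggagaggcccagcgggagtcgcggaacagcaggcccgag
The first ITGA6 window holds 1 E box and 1 GC box, and the second holds 1 ACGTG and 3 GC boxes. The ITGB1 window shown holds 3 GC boxes and none of the other motifs. Among the 12 windows of the matched genes, ACGTG was found in the 2 of ITGA6 and in none of the other 10. As GCGTG was not searched, this does not say which windows lack a hypoxia core. Of all 35116 promoter windows of this length, 21.4% hold ACGTG, 7.26% the E box and 45.0% the GC box. These matches are a description of letters and say nothing of binding.

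By the mean of the 3 comparisons ITGA6 was the lowest of the subunits relative to pLKO, and its 2 probe sets were each lower in all 3. In IBC-III a probe set of ITGB1 was lower than both. There ITGAV was below the brighter ITGA6 probe set by quantile normalization, but not with median centring or as deposited. By quantile normalization the log2 difference of ITGAV was -2.34, against -2.19 for the brighter ITGA6 probe set and -2.65 for the other. The brighter probe set, 201656_at, was deposited with intensities of 40.1, 83.5 and 42.4 in the shRNA lines, against 439 in pLKO. The pLKO value lay above all 3 shRNA values. After quantile normalization the same probe set was below pLKO by 8.06-fold, 5.94-fold and 4.55-fold, a mean log2 difference of -2.59 ± 0.41 (SD, n = 3 comparisons). The second probe set, 215177_s_at, read 18.6, 10.5 and 9.1 in the shRNA lines, against 126.2 in pLKO. It was 5.64-fold lower in IBC-I, and in IBC-II and IBC-III, where it was at the floor, at least 6.26-fold lower. At 17.8 in IBC-I after normalization it was also close to the floor, so it passed the filter on mean level only through pLKO. Its direction was fixed by that, and it adds no support to the brighter probe set. On the values as deposited, with no scaling between arrays, the log2 differences of the brighter probe set were -3.45, -2.39 and -3.37. The order of the shRNA arrays therefore depends on the scaling, and with 1 array a line no spread is available to separate neighbours in it.

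**Figure D1:**
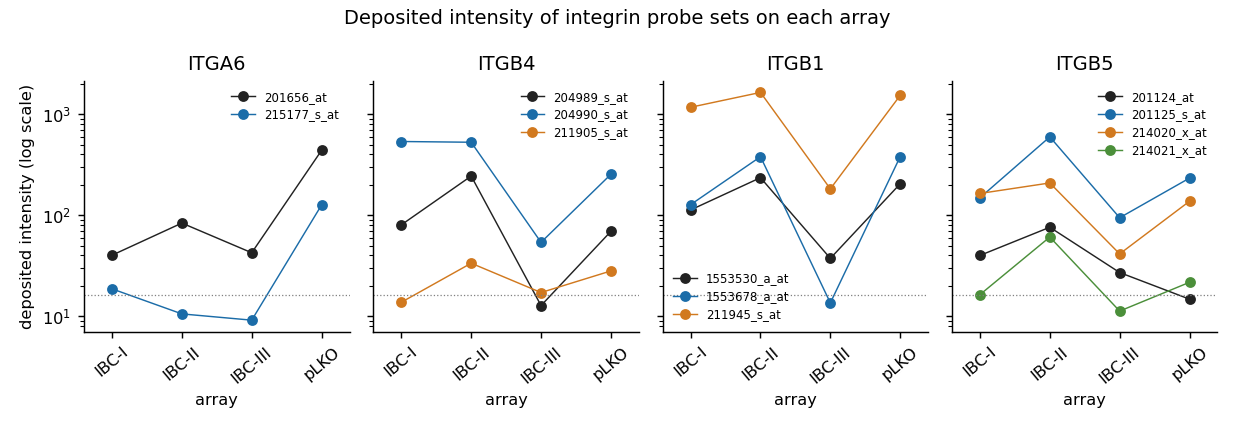
Deposited intensity (log scale) of the tested probe sets of ITGA6, ITGB4, ITGB1 and ITGB5 on each array, 1 point per array, with lines only joining points of a probe set and the dotted line at 16, the floor applied after normalization. Both ITGA6 probe sets lie highest in pLKO, at 439 and 126.2, while ITGB4 204990_s_at is above its pLKO value of 254.3 in IBC-I and IBC-II.

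Of the 16 member probe sets that passed the filter on low values, 2 were at least 3-fold lower in every comparison, both of ITGA6, beside 0.176% of all tested probe sets. No member probe set was at least 3-fold higher in every comparison, beside 0.0366% of all. Since ITGA6 was chosen on this contrast, nothing is read from the first count. Among 27307 probe sets, ITGA6 201656_at was the 18th from the lowest in IBC-I and the 40th in IBC-II, but the 1154th in IBC-III. ITGA6 215177_s_at, at the floor in IBC-II and IBC-III, was the 62nd, 34th and 525th. These ranks too are those of a gene chosen on this contrast. The spread of all log2 differences was widest in IBC-III, with an SD of 1.23 in IBC-III, 0.77 in IBC-I and 0.58 in IBC-II. By the smallest of its 3 folds, ITGA6 was in place 8 of the 12728 genes.

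**Figure D2:**
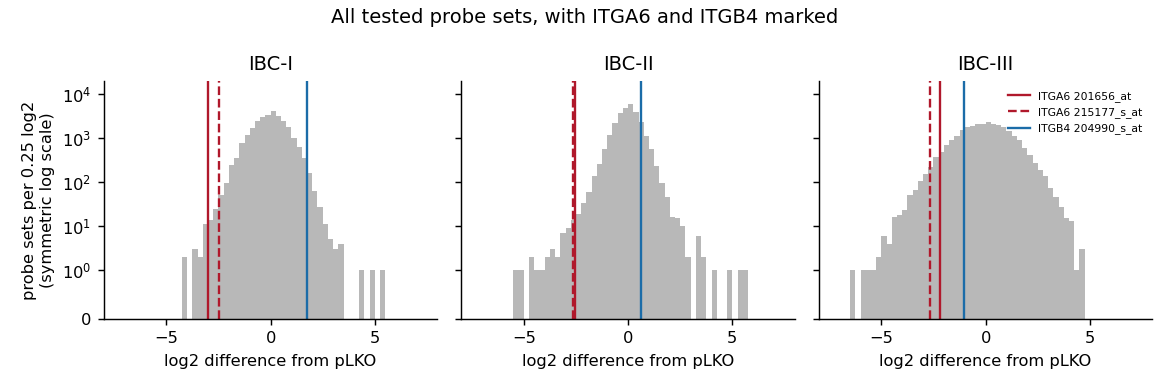
Number of probe sets per 0.25 log2 (symmetric log scale) by log2 difference from pLKO in each comparison, with both ITGA6 probe sets in red and ITGB4 204990_s_at in blue. ITGA6 lies in the far lower tail in IBC-I and IBC-II and nearer the bulk in IBC-III, where the distribution is wider.

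ITGB4, the subunit that pairs only with that of ITGA6, did not share this pattern. Its brightest probe set, 204990_s_at, read 537.6, 528.5 and 53.8 in the shRNA lines, against 254.3 in pLKO. It was 3.31-fold higher in IBC-I and 1.51-fold higher in IBC-II. In IBC-III, whose 3' to 5' ratios were the highest, it was 2.03-fold lower. A second probe set, 204989_s_at, read 80.2, 244.2 and 12.7 in the shRNA lines, against 69.1 in pLKO, and had the same directions. The remaining tested one, 211905_s_at, was dim, between 13.7 and 33.4 on the 4 arrays, and was at least 1.61-fold lower in IBC-I, where it was at the floor, and within 1.04-fold of pLKO in the others. The mean log2 difference of ITGB4 by the brightest probe set was 0.43 ± 1.38 (SD, n = 3), so its spread exceeds its size. It was 1.16 without IBC-III and -0.21 without IBC-I. It also turned to -0.04 on the values as deposited, where IBC-III stood at -2.24, and to -0.02 when its probe sets were averaged.

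ITGB1, the shared partner of many alpha subunits, was bright, and by its brightest probe set within 1.33-fold of pLKO in IBC-I and IBC-II. Its brightest probe set, 211945_s_at, read 1175, 1648.5 and 182.3 in the shRNA lines, against 1540.8 in pLKO. After normalization the log2 differences were 0.41, -0.26 and -1.57. The other tested probe sets of ITGB1 were also lowest in IBC-III: 1553678_a_at read 127.2, 380 and 13.5 in the shRNA lines, against 380.6 in pLKO, and 1553530_a_at read 112.7, 235.4 and 37.3 in the shRNA lines, against 204.7 in pLKO. By these probe sets ITGB1 was 15.0-fold and 2.57-fold lower in IBC-III, and in IBC-I 1553678_a_at was 1.98-fold lower. Both the size and, in IBC-I, the direction thus depend on the probe set. The direction in IBC-I also depends on the scaling. There 211945_s_at had a log2 difference of -0.35 with median centring and -0.39 as deposited. The mean over the comparisons by the brightest probe set was -0.47 ± 1.01, and without IBC-III it was 0.07.

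ITGAV was the other subunit below pLKO in all 3 comparisons. It is read by 1 probe set, with 85.6, 192.7 and 20.6 in the shRNA lines, against 196.8 in pLKO. It was lower by 1.60-fold, 1.33-fold and 5.08-fold, with a mean log2 difference of -1.14 ± 1.05. Without IBC-III that mean was -0.54, and in the values as deposited IBC-II was almost level with pLKO, at -0.03. ITGB5, a partner of ITGAV, went the other way by one probe set and both ways by the rest. Its probe set 201124_at read 39.9, 75.9 and 27 in the shRNA lines, against 14.7 in pLKO, and was higher by 2.57-fold, 3.24-fold and 2.62-fold after normalization, with pLKO set to the floor. These folds depend on the scaling, and in IBC-III the log2 difference was 1.39 after normalization and 0.75 as deposited. The brightest ITGB5 probe set, 201125_s_at, read 148.9, 597.6 and 94.3 in the shRNA lines, against 233.1 in pLKO, and only IBC-II was above pLKO, by 1.86-fold. Its mean log2 difference of 0.27 ± 0.55 turned to -0.06 with median centring and to -0.20 as deposited, and it was -0.05 without IBC-II. The remaining ITGB5 probe sets end in _x_at, a mark that the probes may also bind other transcripts, and both were above pLKO in IBC-II and below it in IBC-III.

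ITGA2, the collagen receptor subunit, and ITGA3, the laminin receptor subunit, were above pLKO in some lines and below it in others. The brightest ITGA2 probe set, 205032_at, read 47.7, 94.4 and 22.2 in the shRNA lines, against 41.2 in pLKO. Its log2 differences were 0.46, 0.77 and -0.15, while 227314_at read 21.4, 80 and 7.8 in the shRNA lines, against 43.5 in pLKO. By 227314_at the difference was 1.88-fold lower for IBC-I and 1.40-fold higher for IBC-II, and IBC-III, where it lay at the floor, was at least 2.41-fold lower. The probe sets of ITGA2 thus disagree on the direction in IBC-I. The mean log2 difference of ITGA2 was 0.36 ± 0.47 by the brightest probe set and -0.10 with its probe sets averaged. ITGA3 read 147, 163.7 and 44.9 in the shRNA lines, against 162.6 in pLKO. In IBC-I its log2 difference was 0.40 after quantile normalization, but -0.10 with median centring and -0.15 as deposited. In IBC-III it was 1.64-fold lower, a log2 difference of -0.71 that was -1.86 as deposited. Its mean log2 difference of -0.22 ± 0.57 was smaller than its spread and was 0.03 without IBC-III. ITGB8, whose pair with ITGAV activates latent TGF-beta, had 5 probe sets, all under the filter, with intensities between 0.7 and 20.8 on the 4 arrays. The other probe sets under the filter were 4 of ITGB1, between 0.6 and 28.6, and 2 of ITGB4, between 0.8 and 22.2. In all, 11 of the 27 member probe sets were under the filter.

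**Figure D3:**
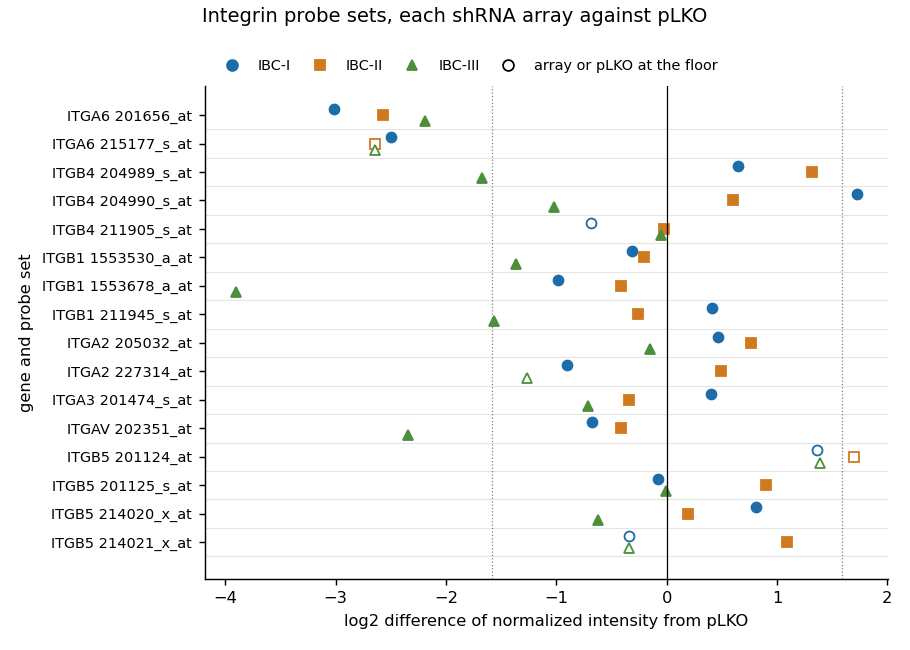
log2 difference of normalized intensity from pLKO for the 16 member probe sets that passed the filter (IBC-I circles, IBC-II squares, IBC-III triangles). Open points have the shRNA array or pLKO at the floor, so that their size depends on it, and dotted lines mark 3-fold. Only ITGA6 lies beyond the lower dotted line with every point.

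By the brightest probe set of a gene, 2 of the 7 subunits tested, ITGA6 and ITGAV, were lower than pLKO in all 3 comparisons, beside 21.3% of all genes. None of the 7 was higher in all 3, beside 18.8% of all genes. The median log2 difference of the 7 was 0.40, -0.26 and -1.02, beside 0.01, 0.00 and -0.11 for all 12728 genes. Scaling moves these baselines. With median centring the median of all genes was -0.37, 0.09 and -0.53, and as deposited it was -0.42, 0.35 and -1.07. With median centring 4 subunits were lower in all 3, with ITGB1 and ITGA3 added, beside 3461 of the 12728 genes. ITGA6 lay below the median of all genes by every one of these scalings in each comparison.

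A ratio of probe sets on the same array does not depend on a scaling factor between arrays, so the level of ITGA6 relative to its partners was taken from the deposited intensities. Relative to ITGB4 204990_s_at, ITGA6 201656_at was lower than in pLKO by 23.1-fold, 10.9-fold and 2.19-fold. Relative to ITGB1 211945_s_at the ratio was lower by 8.35-fold, 5.62-fold and 1.23-fold. The ratio of 201656_at was then taken against all 14 tested probe sets of the other subunits. It was lower than in pLKO for 14 in IBC-I (median 8.30-fold) and for 14 in IBC-II (median 8.83-fold). In IBC-III it was lower for 13 of 14, with a median of 2.52-fold, and the exception was ITGB1 1553678_a_at, with a ratio 2.72 times that in pLKO. By these medians the ratios lay farther from those of pLKO in IBC-I and IBC-II than in IBC-III, which does not hold for every probe set. Of the 14, 6 had a deposited intensity under 16 on at least 1 array, ITGB1 1553678_a_at among them, and their ratios are uncertain. Over the other 8, a choice made after seeing the data, the ratio was lower for all 8 on each shRNA array, with medians of 9.12-fold, 7.02-fold and 2.52-fold. All these ratios share the values of 201656_at and the single pLKO array, and several of the probe sets belong to the same gene. The counts of lower ratios are thus not independent, and ITGA6 was chosen on this contrast, so nothing is read from these counts. Ratios of the second ITGA6 probe set, 215177_s_at, which read under 16 in IBC-II and IBC-III, are not described.

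**Figure D4:**
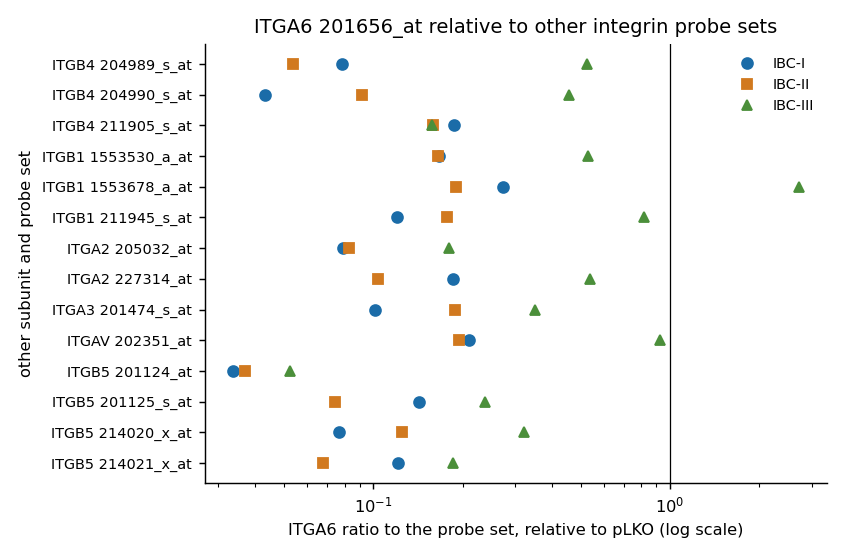
Ratio of ITGA6 201656_at to each of 14 probe sets of the other subunits, relative to the same ratio in pLKO (log scale, deposited intensities; IBC-I circles, IBC-II squares, IBC-III triangles). All points of IBC-I and IBC-II lie left of 1, with medians of 8.30-fold and 8.83-fold lower, and 1 point of IBC-III lies right of it.

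The ligands and cytoplasmic partners of these receptors were taken from lists. A count of genes lower or higher in all 3 comparisons stands beside 21.3% and 18.8% of all genes. With median centring it stands beside 3461 lower and 1506 higher of the 12728 genes. As deposited it stands beside 2599 lower and 921 higher. Of 8 laminin chains tested, from a list of 12, 4 were lower and 1 was higher, and as deposited 1 was lower and 1 was higher. LAMC1, the gamma chain of most laminins, read 131.4, 260.9 and 72 in the shRNA lines, against 218.2 in pLKO, and its log2 differences were -0.17, -0.15 and -0.34, with IBC-II above pLKO as deposited. LAMB3, a chain of the laminin of hemidesmosomes, read 9, 81.1 and 6.6 in the shRNA lines, against 71.2 in pLKO. In IBC-I and IBC-III it lay at the floor, at least 3.70-fold below pLKO, and in IBC-II it was 1.08-fold lower, although its deposited intensity there was above that of pLKO. LAMB1 had the same shape, with at least 1.94-fold in IBC-I and IBC-III and 1.27-fold in IBC-II. LAMA4, a chain of vascular and muscle laminins, read 61.2, 53.3 and 38.9 in the shRNA lines, against 24.5 in pLKO, and was 2.95-fold, 1.69-fold and 2.89-fold higher.

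Of 8 other matrix ligands tested, from a list of 15, 3 were lower and 1 was higher. TGFB1, whose latent form binds the ITGAV receptors, read 76.2, 117.6 and 41.7 in the shRNA lines, against 172 in pLKO, and was 1.58-fold, 1.79-fold and 1.89-fold lower. FN1, or fibronectin, was 1.04-fold, 1.33-fold and 2.64-fold lower, and THBS1, or thrombospondin, was 1.67-fold, 1.05-fold and 1.05-fold lower, with IBC-II above pLKO as deposited. COL1A2, a chain of fibrillar collagen, was 2.44-fold, 1.34-fold and 1.60-fold higher, although its deposited intensity in IBC-III, 26.2, was below the 27.3 of pLKO. Of 7 other integrin subunits tested, from a list of 17, 0 were lower and 2 were higher, but 2 were lower and 2 were higher both with median centring and as deposited. Those higher were ITGB3, the platelet and vascular partner of ITGAV, with 40.6, 31.5 and 23.9 in the shRNA lines, against 3 in pLKO, and ITGAM, a leukocyte subunit, with 33.4, 24.6 and 22.7 in the shRNA lines, against 7.5 in pLKO. Both were dim, with pLKO at the floor, and after normalization their log2 differences in IBC-I were 1.39 for ITGB3 and 1.06 for ITGAM. The fibroblast markers, COL1A2 among them, summed to 313, 354 and 253 in the shRNA lines, against 285 in pLKO, and the leukocyte markers summed to 36.8, 29.4 and 14.7 in the shRNA lines, against 26.6 in pLKO. COL1A1 made most of the fibroblast sum, with 199.9, 253.9 and 212.3 in the shRNA lines, against 228.2 in pLKO. Of the leukocyte markers, CD14 was at the floor on 4 arrays, PTPRC on 3 and CD3E on 1. The cultures were all of MDA-MB-361, and the part of these markers in these values was not tested.

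Of 6 hemidesmosome and tetraspanin partners tested, from a list of 7, 2 were lower and 1 was higher, and as deposited 0 went the same way in all 3. PLEC, or plectin, which links ITGB4 to keratin filaments, read 141.1, 170.1 and 67.3 in the shRNA lines, against 120.8 in pLKO, and was 1.69-fold, 1.08-fold and 1.29-fold higher. In IBC-III that direction turned to a log2 difference of -0.22 with median centring and of -0.84 as deposited. The tetraspanins are membrane proteins that cluster integrins. CD82 was lower by 2.42-fold and 1.12-fold in IBC-I and IBC-II and by at least 10.6-fold in IBC-III, and CD81 was 1.71-fold, 1.01-fold and 3.62-fold lower, so both lay near pLKO in IBC-II. In IBC-II both had deposited intensities above those of pLKO.

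Of 19 activators and adaptors tested, from a list of 21, 5 were lower and 4 were higher. With median centring 8 were lower and 3 were higher, and as deposited 4 were lower and 1 was higher. ACTN4, an actin crosslinker of adhesion sites, read 1168, 1521.3 and 368.9 in the shRNA lines, against 502.7 in pLKO, and was 3.77-fold, 2.21-fold and 1.98-fold higher. In IBC-III it was lower than pLKO without normalization, with a log2 difference of -0.45. The tyrosine kinase SRC, which signals from adhesion sites, read 66.4, 156 and 63.6 in the shRNA lines, against 203.4 in pLKO, and was 2.18-fold, 1.65-fold and 1.37-fold lower. LIMS2 and PARVA, which form a complex with the integrin-linked kinase, were 1.54-fold to 1.67-fold and 1.29-fold to 2.01-fold higher over the 3 comparisons. The deposited log2 difference of LIMS2 was -0.12 in IBC-III. Of 3 inactivators tested, from a list of 5, 0 were lower and 1 was higher in all 3. This was DOK1, named after its values were seen, with 34.7, 35.6 and 15.4 in the shRNA lines, against 19.3 in pLKO, and IBC-III below pLKO as deposited. SHARPIN, which keeps integrins inactive, had log2 differences of 0.65, 0.48 and -0.10. ITGB1BP1, which competes for the tail of the ITGB1 product, had -0.70, 0.05 and -1.58.

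**Figure D5:**
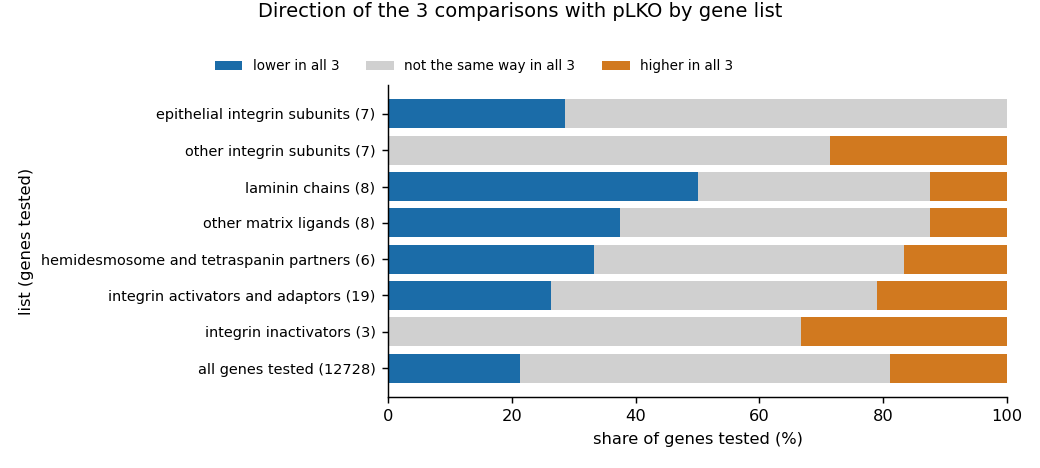
Share of the genes tested in each list that were lower in all 3 comparisons with pLKO, higher in all 3, or neither, by the brightest probe set, with the number tested in parentheses. The bar of all 12728 genes has 21.3% lower and 18.8% higher.

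The genes whose differences from pLKO were most like those of ITGA6 were ranked by the root mean square distance of their 3 log2 differences from its own, over the 12727 other genes and 4 arrays. The nearest was TMEM229B, at a distance of 0.37, with 17.2, 7.1 and 10.1 in the shRNA lines, against 112.2 in pLKO. Next were GTPBP2 at 0.48, the chemokine CXCL8 at 0.51, and DDIT4, an inhibitor of mTORC1, at 0.55. GTPBP2 read 48.7, 100.4 and 32.3 in the shRNA lines, against 356.8 in pLKO. MRC2, a collagen receptor, the uridine phosphorylase UPP1, the protease inhibitor SERPINA5, the methyltransferase PNMT, the ubiquitin ligase subunit RBCK1 and CYP2A6 followed, at 0.55 to 0.71. The CYP2A6 probe set is of a kind shared by a gene family, so its name is uncertain. The median distance over all genes was 2.61. TMEM229B, CXCL8, UPP1, SERPINA5, PNMT and MRC2 were at the floor on at least 1 shRNA array, and all of these comparisons share the pLKO array. UPP1 was at the floor on all 3, and TMEM229B and PNMT were so in IBC-II and IBC-III. Differences at the floor give only the height of pLKO above it, so nothing is read from the nearness of these genes to ITGA6.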

How the data were processed

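RNA of 4 cell lines was hybridized to Affymetrix U133 Plus 2.0 arrays, 3 lines with shRNA to DCD and 1 with pLKO. The deposited values are linear intensities, 1 per probe set and array. Whether they come from dChip, the program that the methods name, is not stated. Their medians differed between arrays (13.4 to 24.7), so they were quantile normalized with limma (version 3.58.1, R 4.3.3) on the log2 scale, after 62 control probe sets were left out and intensities of 0 set to 0.1, and then floored at 16. The deposited intensities lay under that floor for 39.3% to 55.1% of probe sets, which is the limit on depth here.

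Tests used 27307 probe sets, those whose mean log2 level reached the median probe set's. Probe sets were named from the platform annotation, 41091 with a single gene, 1801 with several and 11721 unnamed here. Symbols were updated through the gene identifier with the GRCh38.p14 table. The brightest probe set stood for a gene. Differences are shRNA minus pLKO. limma was fitted to all 4 arrays with 2 residual degrees of freedom and Benjamini-Hochberg adjustment, taking its spread from the shRNA arrays, which differ in hairpin, with pLKO, a single array, assumed to have the same spread. The scripts were tested on simulated data, with recovery required only at a spread smaller than that of ITGA6 over the lines. The simulation therefore does not show what limma can find in these data. The named genes were the members, up to 4 genes of each list that went the same way in all 3 comparisons by the smallest difference (or, with fewer than 2 such genes, the 2 of highest level), and the 10 genes nearest to ITGA6. The members and lists were chosen with earlier results of these data known. Alternatives were other scalings, floors, filters, fold rules, probe set choices and tests, and each shRNA array left out. Nothing says that the lines came from repeated cultures, so the spread over the 3 lines includes that between hairpins. Figures were drawn with matplotlib 3.10.9.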

Additional observations from a re-analysis of the deposited data

Results flagged for a closer look

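The control probe sets, which enter no comparison, had 3' to 5' ratios above that of pLKO on 2 shRNA arrays. For ACTB the ratio was 9.67 in IBC-I and 42.6 in IBC-III, against 5.29 in pLKO. For GAPDH it was 2.18 in IBC-I and 13.1 in IBC-III, against 1.09 in pLKO. The part of RNA quality in the values of ITGA6 and of the other subunits was not tested.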

How the results depend on the processing

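ITGA6 was lower than pLKO in every comparison under each alternative tried, with a mean log2 difference of -2.59 that was -3.07 for the values as deposited and lay between -2.79 and -2.38 with an shRNA array left out. The number of subunits lower in all comparisons, 2, was 4 with median centring and between 2 and 4 with an array left out (4 without IBC-I). The number higher, 0, was 1 with the mean of all probe sets and with the brightest probe set ending in _at (ITGB5 in both). It lay between 0 and 2 with an array left out (2 without IBC-III, ITGB4 and ITGA2). Without IBC-III, 3917 of the 12728 genes were lower and 3942 higher in both comparisons left. The same count over all genes was not made without IBC-I or IBC-II, so nothing is read from these numbers of subunits. Over all probe sets, the 48 lower and 10 higher by at least 3-fold became 90 lower with median centring and 96 lower as deposited. They became 246 higher with a floor of 1, 21 lower and 3 higher with a floor of 64, and 18 lower with the upper quartile filter. With at least 2-fold they were 209 lower and 174 higher, and with at least 4-fold 20 lower and 4 higher. With an array left out they lay between 87 and 360 lower and between 27 and 199 higher, the highest of both without IBC-II. limma's 0 calls became 389 lower and 6 higher with a floor of 64, of which 364 had the same value on all shRNA arrays. With no filter they became 1308 lower and 19 higher, of which 1222 had the same value there. Leaving out probe sets under 16 as deposited, an alternative chosen after seeing the data, changed no direction of the median ITGA6 ratios. The cause of the other changes was not tested. The shRNA arrays could not each be paired with a control array of their own, because there is a single pLKO array. The paired t-test used that array for all 3 differences. Low signal limits 11 of the 27 member probe sets, the 5 of ITGB8 among them, which lay under the filter.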
